A study of Mus musculus with 16 samples.

Results

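Npy and Tac2, which encode the precursors of the neuropeptides neuropeptide Y and neurokinin B, were followed across mouse fetal liver cells with an altered GATA1 or an added ERG gene. They were 2 of the 16258 genes and gene groups tested. Each symbol was matched by a single probe set, and both probe sets passed the filter on dim signal. The members were chosen from these same arrays, because Npy was high with the GATA1s allele and Tac2 was low with the GATA1s allele, the ERG transgene or both. Those genotype differences are therefore given as values without a test.

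The 16 arrays held total RNA from single-cell suspensions of fetal liver at embryonic day 12.5 (E12.5) or 14.5 (E14.5). The genotypes at each stage were wild type (WT), an ERG transgene (ERG Tg in the labels, ERG here), the GATA1s knock-in allele (WT/GATA1s in the labels, GATA1s here), or both (ERG/GATA1s). A group held 2 arrays, 1 with a female and 1 with a male label, so that there were 8 groups. GATA1 is the master regulator of the red cell and megakaryocyte lineages, and the short form GATA1s is missing the protein's first stretch. ERG belongs to the ETS family and acts in blood stem cells and in megakaryocytes. Not given in the sources used here are the promoter of the transgene, the copies of the X-linked GATA1s allele in females, and whether embryos were pooled. The p-values therefore measure the spread between these samples, which may be technical.

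Neuropeptide Y is released by sympathetic and brain neurons, and in rodents it is also stored by megakaryocytes and platelets. It acts through the Y receptors, which couple to inhibitory G proteins. Neurokinin B is a tachykinin, best known from hypothalamic neurons that control reproduction, and its preferred receptor is the product of Tacr3. Both peptides are cut from larger precursors in secretory granules, trimmed at basic residues and amidated at the end before release.

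The bases just before the start of each gene are shown because GATA1 and ERG, the factors of the design, bind short DNA motifs. The 250 bases of each window come from RefSeq's table for GRCm38.p6 and lie on the + strand, at chr6:49822460-49822709 for Npy and chr10:127724228-127724477 for Tac2. Capitals mark the letters GATA on either strand.
Npy: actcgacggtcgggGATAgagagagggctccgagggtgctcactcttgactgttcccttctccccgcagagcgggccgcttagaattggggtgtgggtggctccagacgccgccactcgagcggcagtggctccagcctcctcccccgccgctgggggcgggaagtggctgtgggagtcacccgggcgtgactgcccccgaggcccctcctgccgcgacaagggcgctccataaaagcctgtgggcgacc
Tac2: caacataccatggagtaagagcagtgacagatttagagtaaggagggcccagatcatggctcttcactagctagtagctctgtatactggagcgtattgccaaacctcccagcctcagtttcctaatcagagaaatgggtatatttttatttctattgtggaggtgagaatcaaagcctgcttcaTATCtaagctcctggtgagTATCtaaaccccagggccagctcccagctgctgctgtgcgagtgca
The Npy window held 1 GATA match and the Tac2 window 2, and 53.6% of the 32841 promoter windows of that length held at least 1. Longer forms that contain GATA, with both strands searched, were TGATAA and its variant TGATAG, together with AGATAA and its variant AGATAG; neither window held any of them, and 26.5% of all windows held at least 1. GGAA, the core of ETS factor motifs such as those of ERG, matched at 2 places before Npy and 1 before Tac2, and 93.5% of windows held it. These are matches of letters in 1 window and do not show binding.

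Signals on the 28270 probe sets lay between 1.96 and 13.32 on the log2 scale, and the medians of the arrays between 4.79 and 4.94. Precision is limited by the number of arrays; a gene's residual SD had a median of 0.1615. Markers of fetal liver were present: the albumin gene Alb lay between 10.95 and 12.22 and the embryonic globin gene Hbb-bh1 between 8.03 and 12.19. Sex markers (Xist, and Eif2s3y, Kdm5d and Uty from the Y chromosome) went against the label on 3 arrays. These were the E12.5 GATA1s and E12.5 ERG/GATA1s arrays labelled male, where Xist was 9.83 and 9.51, and the female-labelled E14.5 ERG/GATA1s array, where it was 4.22. On 3 others, the arrays labelled male of E12.5 WT, E12.5 ERG and E14.5 ERG, Xist (9.35, 5.73 and 10.03) and Y-linked signal were both present or lay in between. By these markers both E12.5 ERG/GATA1s arrays were female and both E14.5 ERG/GATA1s arrays male, so that group's stage difference and sex cannot be told apart. In bulk RNA, fewer cells that express a gene and less RNA per cell cannot be told apart.

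Npy signal was high wherever the GATA1s allele was present and low without it. At E12.5 the WT arrays read 7.07 (labelled female) and 5.80 (labelled male), the ERG arrays 6.23 and 6.49, the GATA1s arrays 8.65 and 8.48, and the ERG/GATA1s arrays 7.51 and 7.90. At E14.5 the WT arrays read 4.84 and 5.04, the ERG arrays 5.14 and 5.04, the GATA1s arrays 7.96 and 9.14, and the ERG/GATA1s arrays 8.76 and 8.68. All 8 arrays of GATA1s carriers lay above all 8 arrays of non-carriers, with no overlap between 7.07, the highest non-carrier, and 7.51, the lowest carrier. The rule selected this pattern, and how many other genes separate all carriers from all non-carriers was not counted. A different share, that of genes passing limma's test in GATA1s against WT, was 3.81% of all genes tested.

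**Figure D1:**
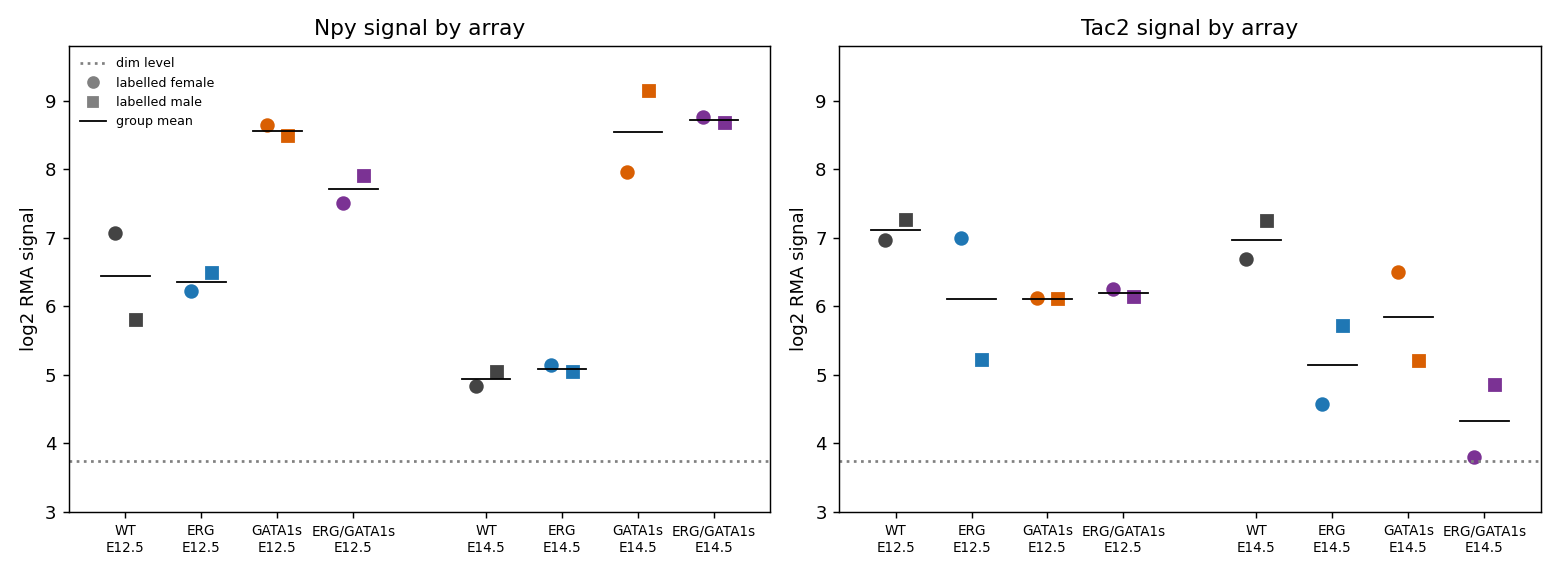
Log2 RMA signal of Npy (left) and Tac2 (right) on each of the 16 arrays, by genotype and stage; circles are arrays labelled female, squares arrays labelled male, bars the group means, and the dotted line the dim level of 3.74. Npy lies at 7.51 or more on every array with the GATA1s allele and at 7.07 or less on the others, while by group mean Tac2 is highest in the WT groups and lowest in E14.5 ERG/GATA1s, with single arrays of ERG between 4.57 and 6.99.

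Ordered by group mean, Npy fell into a high and a low set of 4 groups. The high set was E14.5 ERG/GATA1s (8.72 ± 0.0566, SD, n = 2), E12.5 GATA1s (8.57 ± 0.12), E14.5 GATA1s (8.55 ± 0.834) and E12.5 ERG/GATA1s (7.71 ± 0.276). The low set was E12.5 WT (6.44 ± 0.898), E12.5 ERG (6.36 ± 0.184), E14.5 ERG (5.09 ± 0.0707) and E14.5 WT (4.94 ± 0.141). Of neighbours in this order, E12.5 and E14.5 GATA1s overlapped, as did E12.5 WT and ERG, and E14.5 ERG and WT. E14.5 ERG/GATA1s and E12.5 GATA1s did not overlap, but their means differed by only 0.155, and the range of E14.5 GATA1s covered both.

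Over both stages Npy was higher in GATA1s than in WT by 2.87 ± 0.257 (SE, log2 scale, 4 arrays against 4), or 7.31-fold, in 4 of 4 pairs of arrays matched on stage and sex label. The difference was 2.13 ± 0.364 at E12.5 and 3.61 ± 0.364 at E14.5. In ERG/GATA1s it was 1.27 ± 0.364 and 3.78 ± 0.364 at the same stages. The female-labelled E12.5 WT array carried the highest non-carrier value: without it the GATA1s difference over both stages was 3.25, and without its partner 2.49. The E12.5 differences moved more with these arrays. Without the female-labelled one they were 2.88 in GATA1s and 2.02 in ERG/GATA1s, and without the male-labelled one 1.38 and 0.515. Without the 3 arrays with opposing sex markers the GATA1s difference over both stages was 2.93.

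The ERG transgene alone was not part of how Npy was chosen, and Npy in ERG was not distinguishable from WT. Over both stages the difference was 0.04 ± 0.257, with a 95% interval from -0.515 to 0.59 (limma adjusted p = 0.996, higher in 2 of 4 pairs and equal in 1). At E12.5 it was -0.08 ± 0.364 (limma adjusted p = 0.995) and at E14.5 0.15 ± 0.364 (limma adjusted p = 0.996). The stage effects differed by 0.23 ± 0.514 (limma adjusted p = 0.946). The interval over both stages leaves room for differences of up to about 0.59, smaller than the 2.87 seen with GATA1s. ERG and GATA1s were compared with the same WT arrays.

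Adding ERG to the GATA1s allele gave no call for Npy either. Over both stages ERG/GATA1s minus GATA1s was -0.35 ± 0.257 (95% interval -0.898 to 0.207, limma adjusted p = 0.867, lower in 3 of 4 pairs), in a comparison where 0.117% of genes passed. At E12.5 both ERG/GATA1s arrays, at 7.51 and 7.90, lay below both GATA1s arrays, a difference of -0.86 ± 0.364 that did not pass (limma adjusted p = 0.777, unadjusted p = 0.0333). At E14.5 the difference was 0.17 ± 0.364 (limma adjusted p = 0.998), and it was -0.011 with Y-linked signal in place of labelled sex.

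**Figure D2:**
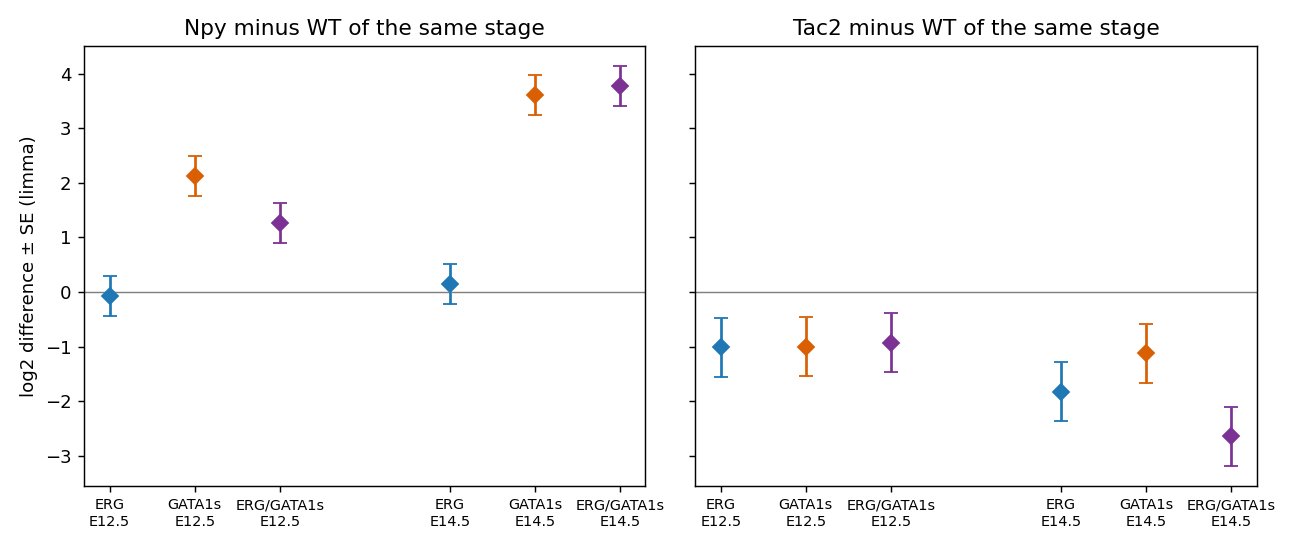
Log2 difference from WT of the same stage, with its standard error from limma, for Npy (left) and Tac2 (right) in ERG, GATA1s and ERG/GATA1s; every difference at a stage shares the same WT arrays. Npy lies near 0 in ERG and between 1.27 and 3.78 with GATA1s, and Tac2 lies below 0 in all 6 groups, from -0.93 to -2.65.

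The rule that chose the members names genotypes and no stage, and Npy changed with stage in embryos without GATA1s. In WT it fell from a mean of 6.44 at E12.5 to 4.94 at E14.5, a difference of -1.50 ± 0.364 or 2.82-fold (limma adjusted p = 0.0124, lower in 2 of 2 pairs). Among all genes tested 18.2% passed in that comparison, so 1 of the 2 members passing is not particular to them. The call was lost without the female-labelled E12.5 WT array, where the difference was -0.74 (limma adjusted p = 0.149), and without the female-labelled E14.5 WT array (limma adjusted p = 0.0612).

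In ERG Npy fell by 1.27 ± 0.364 on the log2 scale (limma adjusted p = 0.0276, lower in 2 of 2 pairs; 17.6% of genes passed). That call was lost without any of the 4 ERG arrays (limma adjusted p from 0.0688 to 0.187), and without the 3 arrays with opposing sex markers (limma adjusted p = 0.0771). In GATA1s the difference was -0.02 ± 0.364 (limma adjusted p = 0.98, 22.5% of genes passed). In ERG/GATA1s it was 1.02 ± 0.364 (limma adjusted p = 0.06, higher in 2 of 2 pairs, 21.9% of genes passed). Whether that rise passed changed with the arrays kept. It lay between 0.82 and 1.21 with 1 array left out, and between 0.757 and 1.116 over the other settings tried. The sex markers of this genotype also differed between the stages. Whether the stage changes differ between genotypes was not tested, since that difference contains the one that chose Npy.

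Tac2 was highest in WT and lower in each of the other genotypes. At E12.5 the WT arrays read 6.97 (labelled female) and 7.26 (labelled male), the ERG arrays 6.99 and 5.22, the GATA1s arrays 6.12 and 6.10, and the ERG/GATA1s arrays 6.25 and 6.13. At E14.5 the WT arrays read 6.69 and 7.25, the ERG arrays 4.57 and 5.71, the GATA1s arrays 6.50 and 5.20, and the ERG/GATA1s arrays 3.80 and 4.85. The WT arrays did not overlap those of GATA1s or ERG/GATA1s at either stage. They overlapped those of ERG at E12.5, where the array labelled female read 6.99, within the WT range, and the one labelled male 5.22. Tac2 was chosen for low signal in these genotypes, and how many other genes separate from WT in this way was not counted. A different share, that of genes passing limma's test against WT over both stages, was 3.81% in GATA1s, 0.283% in ERG and 10.6% in ERG/GATA1s. The lowest value, 3.80, was just above the dim level of 3.74.

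By group mean the order was E12.5 WT (7.12 ± 0.205, SD, n = 2), E14.5 WT (6.97 ± 0.396), E12.5 ERG/GATA1s (6.19 ± 0.0849), E12.5 GATA1s (6.11 ± 0.0141) and E12.5 ERG (6.11 ± 1.25). E14.5 GATA1s (5.85 ± 0.919), E14.5 ERG (5.14 ± 0.806) and E14.5 ERG/GATA1s (4.33 ± 0.742) followed. The WT groups overlapped each other and no others next to them, and from E12.5 GATA1s downwards each group overlapped the next. The arrays of 1 group lay up to 1.77 log2 units apart in E12.5 ERG, so the spread within groups is wide for this gene.

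Over both stages Tac2 differed from WT by -1.06 ± 0.381 (SE) in GATA1s, 2.09-fold lower in 4 of 4 pairs. In ERG the difference was -1.42 ± 0.381 (lower in 3 of 4 pairs) and in ERG/GATA1s -1.79 ± 0.381 (lower in 4 of 4 pairs). Single arrays moved these values. The ERG difference was -1.92 without the female-labelled E12.5 ERG array and -0.92 without its partner. The GATA1s difference was -1.43 without the female-labelled E14.5 GATA1s array and -0.70 without its partner. The 3 differences share their WT arrays. Without the 3 arrays with opposing sex markers they were -1.11 in GATA1s and -1.49 in ERG/GATA1s.

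The lower Tac2 signal in ERG/GATA1s was larger at E14.5. There it was -2.65 ± 0.539 against WT (6.25-fold), beside -1.83 ± 0.539 in ERG and -1.12 ± 0.539 in GATA1s. At E12.5 the corresponding values were -0.93, -1.01 and -1.01, each ± 0.539. Against GATA1s, ERG/GATA1s was 0.08 ± 0.539 higher at E12.5 and differed by -1.53 ± 0.539 at E14.5. Each of these values rests on 2 arrays a side. The E12.5 ERG value was -2.01 without the female-labelled ERG array and -0.011 without its partner, so nearly all of it came from 1 array. At E14.5 the GATA1s value was -1.85 without the female-labelled GATA1s array and -0.39 without its partner, and the ERG value was -1.17 without the female-labelled ERG array. The E14.5 difference between ERG/GATA1s and GATA1s was -0.79 without the female-labelled GATA1s array and -0.89 without the 3 arrays with opposing sex markers.

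With stage, Tac2 showed no call in WT, where the difference E14.5 minus E12.5 was -0.15 ± 0.539 (95% interval -1.3 to 1.01, limma adjusted p = 0.891). In GATA1s it was -0.26 ± 0.539 (limma adjusted p = 0.744) and in ERG -0.97 ± 0.539 (limma adjusted p = 0.241). The ERG value was 0.034 without the female-labelled E12.5 ERG array and -1.96 without its partner. In ERG/GATA1s Tac2 fell by 1.87 ± 0.539 on the log2 scale, or 3.64-fold (limma adjusted p = 0.0259, lower in 2 of 2 pairs). E14.5 ERG/GATA1s had the lowest Tac2 mean and was among the groups whose low signal chose Tac2. This p-value is therefore not independent of the choice, nor are those in ERG and GATA1s, whose low signal was also used in it. ERG/GATA1s is also the genotype whose sex markers were female at E12.5 and male at E14.5. With Y-linked signal in place of labelled sex the difference was -1.59 (limma adjusted p = 0.0948). Without the female-labelled E14.5 ERG/GATA1s array it was -1.25 (limma adjusted p = 0.208), and the call was also lost without either E12.5 ERG/GATA1s array (limma adjusted p = 0.0711 and 0.128).

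Marker lists of blood and liver cells are given beside both genes. The megakaryocyte list had 10 measured genes of 14, of which 9 were above the dim level on every array; among them Pf4 encodes a platelet chemokine and Itga2b a platelet integrin. Its mean log2 signal was 9.16 to 9.17 in E12.5 GATA1s, 8.44 to 8.67 in E12.5 ERG/GATA1s, 8.46 to 9.0 in E14.5 GATA1s and 8.99 to 9.09 in E14.5 ERG/GATA1s. Without the allele it was 7.58 to 8.20 and 7.74 to 7.77 in WT and 7.61 to 7.64 and 7.43 to 7.63 in ERG, at E12.5 and E14.5. The 2 arrays of a group stood in the same order in Npy and in the list in 5 of 8 groups. Among these the list was 8.20 against 7.58 in E12.5 WT, where Npy was 7.07 against 5.80, and 8.46 against 9.0 in E14.5 GATA1s, where Npy was 7.96 against 9.14. The order was opposite in 3 groups, among them E12.5 ERG/GATA1s, with 8.67 and 8.44 beside Npy at 7.51 and 7.90. Lists of hepatocytes, of nerve and neuroendocrine cells, and of stellate and endothelial cells also had the order of Npy in 5 groups. The macrophage list had it in 4, the granulocyte list in 3, the mast cell, basophil and eosinophil list in 2 and the erythroid list in 1. In WT Itga2b fell from E12.5 to E14.5 by 0.83 ± 0.211 on the log2 scale (limma adjusted p = 0.0159), whereas Pf4 was 9.54 and 9.08 and then 9.44 and 9.64. The part of megakaryocyte number in the Npy signal was not tested.

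Granulocyte and hepatocyte markers also moved with the GATA1s allele at E12.5. The granulocyte list (9 of 9 genes measured, all above the dim level on every array) was 8.45 to 8.56 in GATA1s and 8.49 to 8.72 in ERG/GATA1s at E12.5, above the 7.72 to 8.17 of WT and the 7.43 to 7.95 of ERG. At E14.5 it was 7.51 to 8.11 in GATA1s, within the 7.34 to 8.19 of WT, and 8.23 to 8.66 in ERG/GATA1s beside 6.56 to 6.71 in ERG. The array with more Npy had the higher granulocyte value in 3 of 8 groups, among them E12.5 WT (8.17 against 7.72) and E14.5 GATA1s (8.11 against 7.51), and the lower one in 5. The hepatocyte list (7 of 8 genes measured) was lower in carriers at E12.5, at 8.60 to 8.65 in GATA1s and 8.68 to 8.83 in ERG/GATA1s beside 9.63 to 9.72 in WT and 9.28 to 9.87 in ERG. At E14.5 it was 11.03 to 11.14 in GATA1s and 10.63 to 10.90 in ERG/GATA1s beside 10.38 to 11.03 in WT and 10.51 to 10.65 in ERG. The part of either cell type in the Npy and Tac2 signals was not tested.

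For Tac2 the lists of red cells and of mast cells, basophils and eosinophils are given. The erythroid list (11 measured genes of 12, all above the dim level on every array) ran from 10.74 to 10.79 in E12.5 WT and from 9.68 to 9.82 in E14.5 ERG/GATA1s, the groups where Tac2 was highest and lowest. In E12.5 ERG it was 10.77 on the array with the Tac2 signal of 6.99 and 10.44 on the array with 5.22. In E14.5 WT the order was the other way, with 10.66 beside a Tac2 signal of 6.69 and 10.29 beside 7.25. These 2 values enclosed those of E12.5 GATA1s (10.39 to 10.40) and E12.5 ERG/GATA1s (10.37 to 10.62), where Tac2 was lower. The 2 arrays of a group stood in the same order in Tac2 and in the erythroid list in 4 of 8 groups. The order was opposite in 3 groups, and in 1 the arrays were equal. The mast cell, basophil and eosinophil list (10 of 10 genes measured) was 5.27 to 5.63 in E14.5 WT and 4.95 to 5.20 over the other E14.5 groups. At E12.5 it was 5.80 to 5.89 in WT and 5.66 to 5.96 over the other groups, which overlap, while Tac2 was about 1 log2 unit lower there. Within E14.5 WT the list was 5.63 beside a Tac2 signal of 6.69 and 5.27 beside 7.25. Its markers Mcpt8, Fcer1a and Ms4a2 were under the dim level on every array. The list also holds Gata2 and Cpa3, whose differences between ERG and WT over both stages had opposite signs. Gata2 differed by 1.04 ± 0.162 (limma adjusted p = 0.0168) and Cpa3 by -0.75 ± 0.244 (limma adjusted p = 0.311). Gata2 was higher in 3 of 4 pairs, while Cpa3 did not pass and was higher in 2 of 4 pairs and lower in 2. The list mean averages over such genes. The part of either cell type in the Tac2 signal was not tested.

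**Figure D3:**
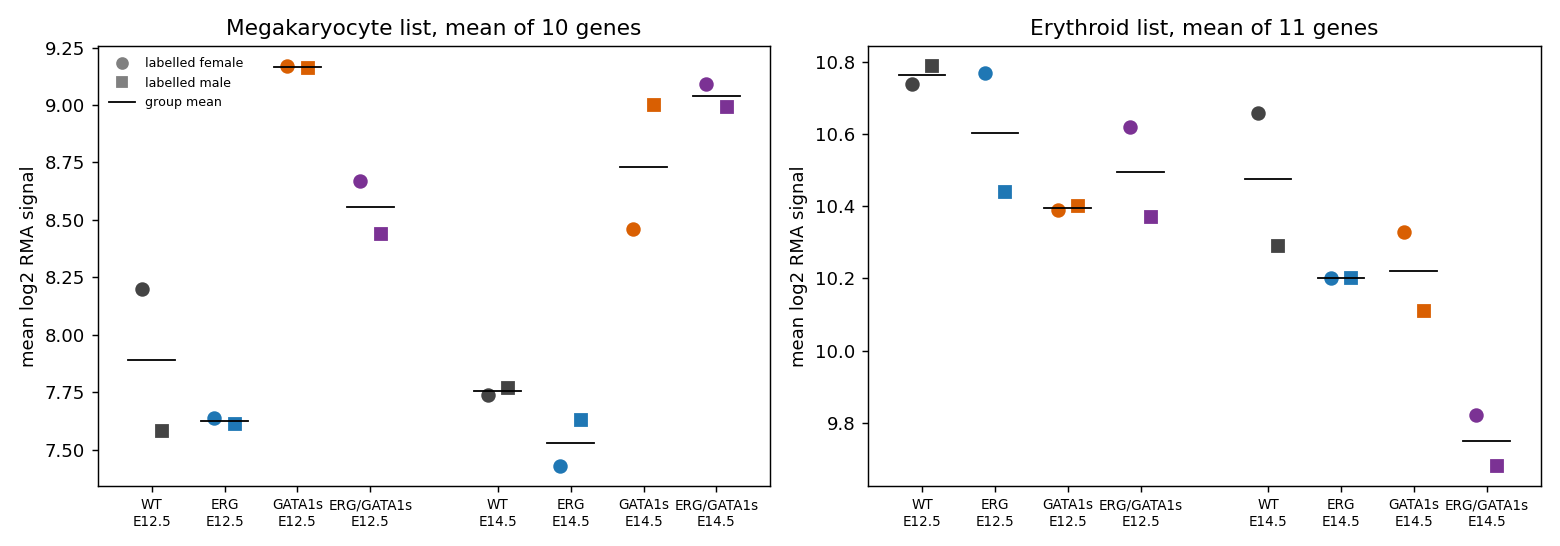
Mean log2 RMA signal of the megakaryocyte list (left, 10 genes) and the erythroid list (right, 11 genes) on each array; symbols as in the plot of Npy and Tac2 by array, and the axes do not start at 0. The megakaryocyte list lies at 8.44 or more on arrays with the GATA1s allele and at 8.20 or less on the others, and the erythroid list is lowest in E14.5 ERG/GATA1s.

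Markers of nerve and neuroendocrine cells, the usual source of both peptides, had low signals that lay close together on all arrays. The list (13 measured genes of 16) had mean log2 signals of 4.04 to 4.49 over all 16 arrays. Th, the enzyme that begins catecholamine synthesis, lay between 3.79 and 4.48, and the neuronal gene Stmn2 between 3.32 and 4.97. Of the 13 genes, 9 were above the dim level on every array and 1, Elavl4, was under it on every array. Stmn2 was highest on the female-labelled E14.5 ERG array (4.97) and the male-labelled E14.5 WT array (4.90). The part of nerve cells in the Npy and Tac2 signals was not tested.

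The measured relatives of neuropeptide Y had signals near or above the array medians, the receptors of both peptides had signals near or under the dim level. Of the NPY family and its receptors, 3 of 7 genes passed the filter. Pyy, which encodes the gut hormone peptide YY, lay between 5.18 and 5.81, and Ppy, which encodes pancreatic polypeptide, between 4.77 and 5.38. Of the receptor genes Npy5r passed the filter, with 3.50 to 3.99, while Npy1r (highest 3.29), Npy2r (3.08), Npy4r (3.35) and Npy6r (2.77) stayed under 3.74 on every array. Of the tachykinin genes and receptors 2 of 5 passed: Tacr1, the substance P receptor gene, at 3.95 to 4.37, and Tacr2, the neurokinin A receptor gene, at 3.68 to 4.42. Tacr3, the gene of the neurokinin B receptor, was 3.14 to 3.46, and the precursor genes Tac1 and Tac4 reached 2.73 and 3.68. Signal this low does not show that a gene was off.

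**Figure D4:**
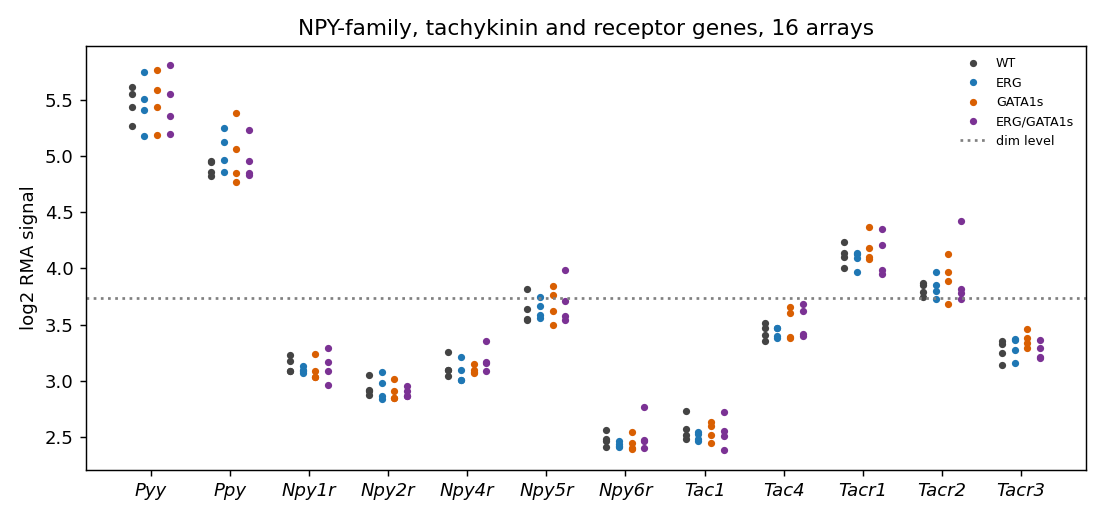
Log2 RMA signal of the NPY-family, tachykinin and receptor genes on the 16 arrays, in columns by genotype (4 arrays each); the dotted line is the dim level of 3.74, and levels of different genes cannot be compared since each rests on its own probes. The genotypes overlap for each gene shown, and 7 of the 12 genes stay under the dim level on every array.

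The test gave no call for any of the 5 relatives and receptors that passed the filter, in the genotype comparisons over both stages or with stage in WT. Of them 0 had an unadjusted p under 0.05 in limma. For Pyy the GATA1s difference was 0.03 ± 0.12, with a 95% interval from -0.23 to 0.285. For Tacr1 it was 0.06 ± 0.102, with a 95% interval from -0.158 to 0.283.

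The pathway lists also held the enzymes that process and break down peptides, proteins of dense core vesicles, and other peptide precursors. Together 96 of 101 genes had a probe set, and 76 were above the filter on dim signal and were tested. In GATA1s against WT 1 of the 76 passed (1.32%, beside 3.81% of all genes), with a median change of 0.06 against 0.01 for all genes. The gene was Rab27b, a GTPase of granule secretion in platelets and other cells. It read 6.48, 5.98, 6.01 and 5.92 in WT (E12.5, then E14.5) and 7.64, 7.54, 6.77 and 7.15 in GATA1s, with no overlap. It rose by 1.18 ± 0.118 (limma adjusted p = 0.000225, 4 of 4 pairs), a call that held without any 1 array and without the 3 arrays with opposing sex markers (limma adjusted p = 0.0262). The list count was 3 without the male-labelled E14.5 WT array, and 2 without its partner or either E12.5 ERG/GATA1s array.

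In ERG against WT limma called 0 of the 76, with 5 at an unadjusted p under 0.05, beside 0.283% of all genes called. Without the female-labelled E12.5 ERG array it called 1.

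In ERG/GATA1s against WT 3 genes rose and 1 fell (5.26%, beside 10.6% of all genes). Rab27b rose by 1.04 ± 0.118 (limma adjusted p = 0.000236). Slc18a2, the vesicle transporter that loads monoamines, rose by 0.58 ± 0.129 (limma adjusted p = 0.012, 4 of 4 pairs). Adm, the adrenomedullin precursor, rose by 0.62 ± 0.135 (limma adjusted p = 0.0109) but in only 2 of 4 pairs: at E12.5 it was 4.14 and 4.10 in ERG/GATA1s beside 4.21 and 4.42 in WT, and at E14.5 5.92 and 5.55 beside 4.02 and 4.60. Cpd, a carboxypeptidase that trims basic residues, fell by 0.62 ± 0.154 on the log2 scale (limma adjusted p = 0.0215, 4 of 4 pairs).

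Of these calls only that of Rab27b held without each array in turn. Those of Slc18a2, Adm and Cpd were lost without the female-labelled E14.5 ERG/GATA1s array (limma adjusted p up to 0.0738, 0.0701 and 0.0959 over the arrays left out), that of Slc18a2 also without the male-labelled E12.5 WT array and that of Cpd without 4 others. They were lost too without the 3 arrays with opposing sex markers. The count was 17 without the female-labelled E12.5 ERG/GATA1s array, 7 without the female-labelled E14.5 WT array and 1 without the female-labelled E14.5 ERG/GATA1s array.

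With stage in WT, 10 of the 76 rose and 4 fell, 18.4% beside 18.2% of all genes, so the lists as a whole changed about as often as other genes. Enzymes of peptide breakdown had 5 rises and 2 falls among 12 tested genes. Dpp4, the dipeptidyl peptidase that shortens neuropeptide Y, read 4.63 and 4.30 in E12.5 WT and 5.47 and 5.98 in E14.5 WT, a rise of 1.26 ± 0.199 (limma adjusted p = 0.00115). The aminopeptidase gene Enpep rose by 0.93 ± 0.143 (limma adjusted p = 0.000941). Anpep (0.87) and Ece1 (0.67) rose, as did Dpp8 (0.59), which was named after its values were seen because it completes the count. Dpp9 (-0.85) and Thop1 (-0.59) fell. The calls for Anpep, Ece1, Dpp8, Dpp9 and Thop1 were lost without the male-labelled E12.5 WT array, among others, with limma adjusted p up to 0.383.

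Of the 13 processing genes 3 rose with stage. Pam, the enzyme that amidates the ends of both peptides, read 5.53 and 5.63 in E12.5 WT and 6.42 and 7.01 in E14.5 WT, a rise of 1.14 ± 0.159 (limma adjusted p = 0.000552). Qpct, which closes the first residue of some peptides, rose by 0.79 ± 0.132 (limma adjusted p = 0.00154) and the carboxypeptidase gene Cpm by 0.95 ± 0.294 (limma adjusted p = 0.0396). The call for Cpm was lost without any of 7 arrays, with a limma adjusted p up to 0.482. Among other precursors the plasma protein genes Kng1 (1.80 ± 0.287) and Agt (1.54 ± 0.379) rose and Adm2 fell (-0.93 ± 0.142). Unc13d, a vesicle priming gene, fell (-0.81 ± 0.191). The calls for Agt and Unc13d were each lost without the male-labelled E12.5 WT array and 1 other array, with limma adjusted p up to 0.156 and 0.157. Hepatocyte markers rose over the same stages: their list mean was 9.63 to 9.72 in E12.5 WT and 10.38 to 11.03 in E14.5 WT, and the part of hepatocyte number in these rises was not tested. Without the male-labelled E12.5 WT array the count was 6, and without its partner 9.

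Among 15742 genes with 1 symbol, those with array profiles most like Npy were Mmrn1, Car1, Slc7a11, Fosb and Lat. Likeness was the root mean square difference over the 16 arrays of log2 signals centred on each gene's mean; it was 0.534 for Mmrn1, 0.583 for Car1, 0.601 for Slc7a11, 0.682 for Fosb and 0.698 for Lat, where a flat profile would give 1.49. Mmrn1, a carrier protein of platelet granules, had group means of 7.52 and 6.39 in GATA1s and of 4.63 and 3.16 in WT at E12.5 and E14.5. Like Npy it was higher in the female-labelled E12.5 WT array (5.62) than in its partner (3.64). Car1, a carbonic anhydrase of red cells, had means of 9.79 and 8.52 in WT and of 10.72 and 11.12 in GATA1s. Slc7a11 encodes the cystine and glutamate exchanger, Fosb a subunit of AP-1 and Lat a signalling adaptor of T cells and platelets. Fosb differed from Npy at E12.5, where its WT mean of 7.71 was closer to its GATA1s mean of 8.98. Most like the mirror image of Npy were Mboat2 (0.84), Dnajb3 (0.979) and the myosin gene Myo1d (0.992).

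For Tac2 the nearest profiles were those of Lrrc56 (0.44), Ank (0.577), Acot11 (0.589), Runx1t1 (0.591) and Dmtn (0.632), where a flat profile would give 0.982. Lrrc56 had means of 7.48 and 7.08 in WT and 6.76 and 5.20 in ERG/GATA1s, and in E12.5 ERG it too was higher on the array labelled female (7.21) than on its partner (6.35). Runx1t1, the corepressor gene known as ETO, differed in E12.5 ERG, with a mean of 6.87 beside 6.78 in WT. Dmtn encodes dematin of the red cell skeleton, Acot11 an acyl-CoA thioesterase and Ank a membrane protein of pyrophosphate transport. The mirror image of Tac2 was closest to Ctla2a (0.504), the adaptor gene Sla2 (0.565) and Gdf3 (0.591), a growth factor gene. Ctla2a had means of 3.93 and 3.81 in WT and 4.50 and 6.11 in ERG/GATA1s. These genes were picked by likeness over the same arrays and are a description of them.

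**Figure D5:**
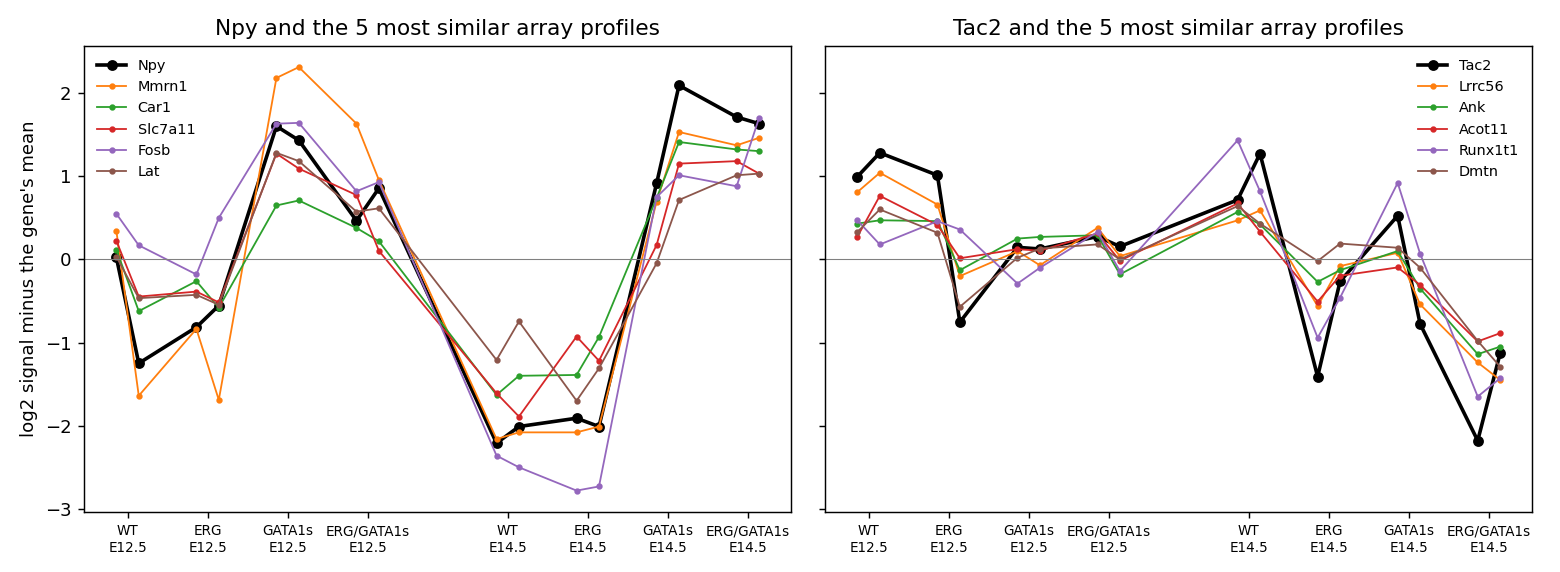
Log2 signal minus each gene's mean over the 16 arrays, for Npy (left) and Tac2 (right) in black and the 5 genes with the most similar profiles in colour; in each group the first point is the array labelled female and the second that labelled male, and lines only join points of a gene. The genes beside Npy are lowest at E14.5 without GATA1s, and those beside Tac2 are lowest in E14.5 ERG/GATA1s.

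Erg and Gata1, which the genotypes alter, and Gata2, which GATA1 represses, had the following levels. Gata1 lay between 9.22 and 10.02, and Erg between 5.32 and 6.01. Over both stages Erg was higher in ERG/GATA1s than in WT by 0.39 ± 0.102 (limma adjusted p = 0.0252). The difference did not pass in ERG (0.22 ± 0.102, limma adjusted p = 0.655) or in GATA1s (0.14 ± 0.102, limma adjusted p = 0.515). At E14.5 Gata2 was 8.79 and 8.30 in ERG, 8.68 and 8.43 in ERG/GATA1s, and 6.31 and 6.84 in GATA1s, where Npy was 7.96 and 9.14. The E14.5 WT mean of Gata2 was 6.18. Over both stages Gata2 was higher than in WT by 0.695 ± 0.162 in GATA1s (limma adjusted p = 0.0306). The rise was 1.04 ± 0.162 in ERG (limma adjusted p = 0.0168, higher in 3 of 4 pairs) and 1.6 ± 0.162 in ERG/GATA1s (limma adjusted p = 0.000191). In ERG the rise was seen at E14.5 only. At E12.5 the ERG mean lay below the WT mean of 7.51. Of all genes tested 3.81%, 0.283% and 10.6% passed in these comparisons. Whether the Erg and Gata1 probe sets detect the transgene or tell the GATA1 isoforms apart is not known.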

How the data were processed

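The authors deposited log2 signal, computed with RMA (no version given, per the submitters' processing notes) and rounded to 2 decimals. Of 28270 probe sets 21780 had 1 gene symbol in the platform annotation. For a symbol with several probe sets the one of highest mean was used, and those above the 30th percentile of all values (3.74, the dim level) on at least 2 arrays were kept, 16258 in all. The model, in limma 3.58.1 under R 4.3.3, took in the 16 arrays with a mean for each group and a term for labelled sex (7 residual degrees of freedom); it was tested on simulated data. Tests were two-sided with Benjamini-Hochberg adjustment over all genes at 0.05; the text calls a result lost where it no longer passes.

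The members and gene lists were chosen with earlier results of these data known. Named genes were the members, their family and receptor genes, and up to 4 called genes per pathway list and direction. The 5 profiles most like each member, the 3 most like its mirror image, and marker and design genes were also named. Some markers that the rule names are not reported here. The megakaryocyte, erythroid, granulocyte, hepatocyte, nerve, and mast cell lists are given beside the members. Macrophage, and stellate and endothelial lists are in the closing section. Alternatives were other filters, normalizations, sex terms, weights, priors and probe sets, only the arrays compared, and each array or 3 arrays left out. Promoter windows are RefSeq's (GRCm38.p6).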

Additional observations from a re-analysis of the deposited data

Results flagged for a closer look

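The stage change of Npy ran one way in both pairs of WT and of ERG and the other way in both pairs of ERG/GATA1s, which brought it here. In WT both pairs were lower at E14.5 and in ERG/GATA1s both were higher, with stage changes 2.51 apart on the log2 scale. ERG and ERG/GATA1s differed likewise, by 2.29. For Tac2, ERG/GATA1s was above GATA1s in both pairs at E12.5 and below it in both at E14.5, and the differences at the 2 stages lay -1.61 apart. None of these differences was tested, and the E12.5 and E14.5 ERG/GATA1s arrays differ in sex markers.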

How the results depend on the processing

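Each test rests on 2 or 4 arrays a side, and the labels give no replicate numbers; the term for labelled sex sets arrays of the same label against each other, and leaving it out changed no call of the members. With only the arrays compared, the Npy stage difference in WT (-1.50, limma adjusted p = 0.131) and in ERG (-1.27, 0.0608) no longer passed, as in ERG without the filter (-1.27, 0.0513) and without the 3 arrays with opposing sex markers (-1.27, 0.0771). That in ERG/GATA1s passed with only the arrays compared (1.02, 7.55e-05), where only 2 arrays a group set the spread, and with the stricter filter (1.02, 0.0485). In the other 9 of 11 alternatives it did not pass, and over all of them it lay between 0.757 and 1.116. The Tac2 stage difference in ERG/GATA1s no longer passed with Y-linked signal as covariate (-1.59, 0.0948), arrayWeights (-1.87, 0.214), eBayes with trend and robust (-1.87, 0.0887) or without the 3 arrays (-1.18, 0.54). Npy in ERG/GATA1s minus GATA1s at E14.5 turned to -0.011 with Y-linked signal. Pathway counts were 2 in GATA1s against WT with quantile normalization, Y-linked signal, arrayWeights, or trend and robust; 1 in ERG/GATA1s against WT with arrayWeights or without the 3 arrays; and 0 with stage in WT with only the arrays compared, where fewer arrays set the spread. The cause of the other changes was not tested.

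Leaving out 1 array gave these ranges. The stage difference of Npy lay between -2.25 and -0.74 (WT), -1.39 and -1.15 (ERG), -0.66 and 0.63 (GATA1s), and 0.82 and 1.21 (ERG/GATA1s). That of Tac2 lay between -0.48 and 0.19, -1.96 and 0.034, -0.99 and 0.47, and -2.48 and -1.25, in the same order of genotypes. Npy in ERG minus WT lay between -0.34 and 0.42 over both stages, -0.83 and 0.68 (E12.5), and 0.06 and 0.24 (E14.5), and the stages differed by -0.53 to 0.98. ERG/GATA1s minus GATA1s lay between -0.67 and -0.02 over both stages and between -0.48 and 0.82 at E14.5. Pathway counts were 1 to 3 in GATA1s, 0 to 1 in ERG, 1 to 17 in ERG/GATA1s and 6 to 17 with stage in WT.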

Other observations

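The remaining marker lists are given as mean log2 signal. The macrophage list lay between 5.20 and 5.61 at E12.5 and between 6.36 and 7.26 at E14.5. The stellate and endothelial list lay between 6.12 and 6.76 at E12.5 and between 6.76 and 7.49 at E14.5.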
